A study of Mus musculus with 2 samples.

Results

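Ntrk2 is the gene for TrkB, and its expression was followed here across the cells of mouse lungs kept in normal air or in low oxygen. The gene was chosen as 1 of the 31053 genes of both count tables because it ranked near the top of the difference between the Hypoxia and the Normoxia library, so its levels are given as a description and were not tested. The animals of both groups carried NG2-CreERTM and the Ai14 tdTomato reporter, received tamoxifen (2 mg per 30 g of body weight) and rested for 7 days. The Hypoxia lungs came from animals then kept at an inspired oxygen fraction (FiO2) of 10% for 21 days, and the Normoxia lungs from animals given no such treatment. CreERTM was driven by the NG2 (Cspg4) promoter, which is active in pericytes and other cells, and tdTomato-positive cells were sorted from digested lobes and loaded for 10x Genomics 3′ single-cell sequencing. The study's methods give an age of 2 to 4 months for its mice in general, and no age is given for these animals in particular. The labels mention 3 replicates for each group, but each group had 1 count matrix, the number of animals behind it is not given in the sources used here, and no difference between the libraries could therefore be set against a spread between replicates.

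TrkB is a receptor tyrosine kinase that binds brain-derived neurotrophic factor (Bdnf) and neurotrophin-4 (Ntf5). Ligand binding leads to phosphorylation of the receptor and to signalling through adaptors of the Shc and Frs2 families, phospholipase C gamma, phosphatidylinositol 3-kinase and the MAP kinases. Truncated forms that lack the kinase domain are made from the same gene, and the p75 neurotrophin receptor (Ngfr) can bind the same ligands. The receptor is best known from neurons and is also found in blood vessels.

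In the GRCm38 annotation, Ntrk2 (ENSMUSG00000055254) lies on the forward strand of chromosome 13 from 58806569 to 59133970. The gene has 10 annotated transcripts, of which 7 are protein coding, with 6 distinct 3′ ends. Of these, 2 transcripts code for the full receptor of 821 codons and 5 for shorter proteins of 466 to 492 codons. The 3′ counts were summed over all of them, so full-length and truncated TrkB cannot be told apart in these data. The overlapping antisense genes Gm47423 and 4930415C11Rik had 0 UMIs (unique molecular identifiers, each marking 1 captured RNA molecule) in both libraries. The 250 bases before the RefSeq start of the gene (chr13:58806319-58806568, forward strand, GRCm38.p6) are shown because oxygen is the variable of the study, with matches to GCGTG or its reverse complement CACGC, the core of a hypoxia response element, in capitals:

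Ntrk2 upstream region: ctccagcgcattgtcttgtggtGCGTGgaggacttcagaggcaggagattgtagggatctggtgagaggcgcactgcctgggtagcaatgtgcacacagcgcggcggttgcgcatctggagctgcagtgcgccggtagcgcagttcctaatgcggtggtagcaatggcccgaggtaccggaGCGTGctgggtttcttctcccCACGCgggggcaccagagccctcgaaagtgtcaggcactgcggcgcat

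This window held 3 matches, 2 forward and 1 reverse, at 228, 69 and 48 bases before the start, and 0 matches to the other form of the core, ACGTG or CACGT. Of 32851 windows of the same length before mouse genes, 38.6% held at least 1 match to either form on either strand and 6.58% held at least as many as Ntrk2. The window had a GC content of 62.8%. A match of these letters is a description of the sequence, and binding was not measured.

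After filtering, 293 of 373 Normoxia barcodes and 453 of 613 Hypoxia barcodes were retained, with medians of 3135 and 2818 UMIs per cell. The libraries shared 2 barcodes, of which 1 was shared among retained cells. Cspg4, the gene whose promoter drives the Cre, had a UMI in 1 Normoxia and 2 Hypoxia cells, and the retained cells were mostly endothelial and immune. Each cell was placed in the class of which it had the most distinct marker genes, with at least 3 required. The endothelial class (15 markers, among them Pecam1, Cdh5 and Tie1) had 107 Normoxia and 212 Hypoxia cells, with a median of 12 distinct endothelial markers and 0 markers of any other class in each library. The stromal class had 87 and 22 cells, the lymphoid class 51 and 130, the myeloid class 27 and 67, and the epithelial class 2 and 3, while 19 cells of each library had no class.

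Ntrk2 was mainly an endothelial transcript in the Hypoxia library and mainly a stromal one in the Normoxia library. In Hypoxia, endothelial cells held 498 of the 518 Ntrk2 UMIs (96.1%) and 46.8% of the cells. Their level was 661 CPM (counts per 1000000 UMIs of the class, exact Poisson 95% interval 604 to 722). In Normoxia, endothelial cells held 12 of 37 Ntrk2 UMIs (32.4%), a level of 37.4 CPM (19.3 to 65.3). These intervals, like all those below, are at 95% and cover counting error only.

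Stromal cells held the other 25 Normoxia UMIs, at 64.2 CPM (41.5 to 94.8), and 15 Hypoxia UMIs, at 136 CPM (76.2 to 225). Lymphoid cells had 0 Ntrk2 UMIs in Normoxia, where 3 counts would give 14.02 CPM, and 2 UMIs in Hypoxia (5.01 CPM, 0.607 to 18.1). Myeloid cells had 0 UMIs in Normoxia, where 3 counts would give 27.0 CPM, and 1 UMI in Hypoxia (3.82 CPM, 0.0967 to 21.3). In Normoxia the order was thus stromal, then endothelial, with overlapping intervals and a log2 ratio of endothelial over stromal of -0.78 (-1.91 to 0.27). In Hypoxia the order was endothelial, stromal, then lymphoid and myeloid, with a log2 ratio of endothelial over stromal of 2.28 (1.54 to 3.13), and the lymphoid and myeloid intervals overlapped.

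**Figure D1:**
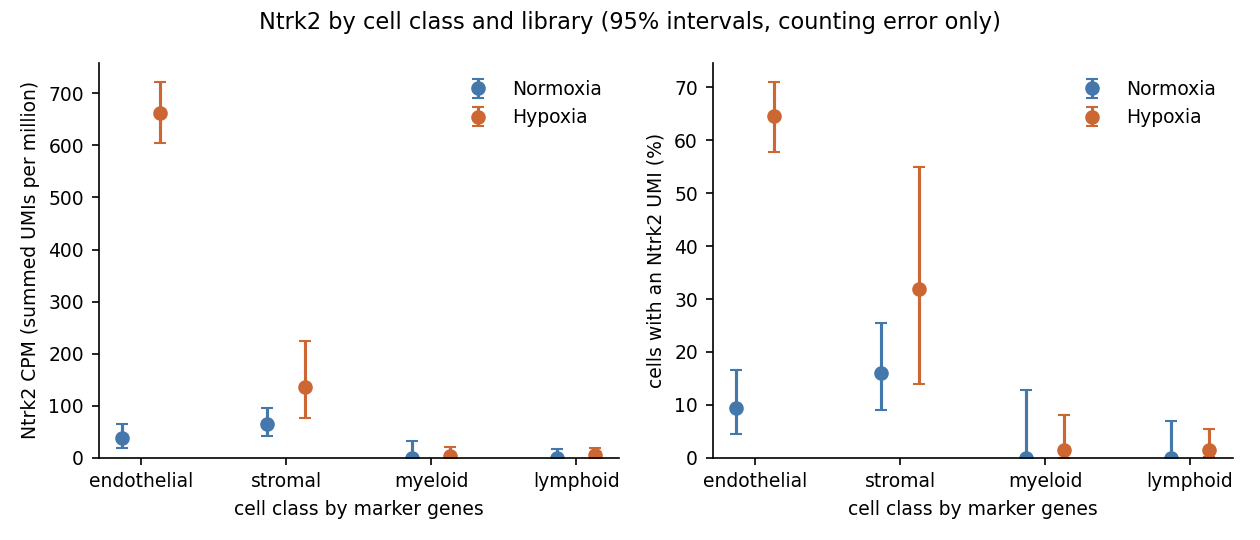
Ntrk2 level in CPM (left) and percent of cells with an Ntrk2 UMI (right) for 4 cell classes, with Normoxia in blue, Hypoxia in orange and bars for 95% intervals of counting error. The Hypoxia endothelial point, at 661 CPM and 64.6% of cells, lies above all others.

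At full depth, the share of cells with an Ntrk2 UMI followed the same order. It was 137 of 212 Hypoxia endothelial cells (64.6%, exact Clopper-Pearson interval 57.8 to 71.0%) and 10 of 107 Normoxia endothelial cells (9.35%, 4.57 to 16.5%), at median depths of 2858 and 2589 UMIs. Normoxia stromal cells had a share of 14 of 87 (16.1%, 9.09 to 25.5%) at a median of 3844 UMIs, with an interval that overlapped the endothelial one. Lymphoid cells, which served as the background for free RNA, had an Ntrk2 UMI in 2 of 130 Hypoxia cells (1.54%, 0.187 to 5.45%) at a median of 2488 UMIs, and in 0 of 51 Normoxia cells, which allows a share of up to 6.98%. The Normoxia endothelial interval overlaps the share allowed by that 0, so by the share alone Normoxia endothelium was not separable from background. By level, the Normoxia endothelial interval of 19.3 to 65.3 CPM lay above the exact upper limit of 17.2 CPM for Normoxia lymphoid cells. It overlapped the range of up to 33.2 CPM that 0 UMIs allow in Normoxia myeloid cells. With every cell thinned to 1000 UMIs, 38.6% (32.0 to 45.6%) of 207 Hypoxia and 4.85% (1.59 to 10.97%) of 103 Normoxia endothelial cells had an Ntrk2 UMI, with 5 and 4 shallower cells left out. Thinned Normoxia stromal cells had one in 4 of 87 cells (4.60%, 1.27 to 11.4%), so the Normoxia order was not seen at equal depth.

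Between the libraries, Ntrk2 was 9.78-fold higher in Hypoxia over all retained cells (log2 ratio 3.29, 2.81 to 3.81) and 17.7-fold higher in endothelial cells (4.15, 3.33 to 5.11). In stromal cells the log2 ratio was 1.08 (0.056 to 2.06), on 25 and 15 UMIs. Among the 6664 genes with at least 20 UMIs in the endothelial cells of both libraries together, 5.81% were at least 2-fold higher in Hypoxia and 4.07% at least 2-fold lower, and the median log2 ratio was -0.0067. Ntrk2 had the rank 11 in that order, which is the contrast it was chosen on. The 10 genes above it were Igfbp5, Slc41a1, Mtmr10, Cryab, Nol11 and the immunoglobulin genes Jchain, Igkc, Ighm, Iglc1 and Iglc2, and 5 genes of the table had 0 UMIs in Normoxia endothelium.

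Within the Hypoxia endothelium, Ntrk2 varied from cell to cell. Of 212 cells, 75 had 0 Ntrk2 UMIs, 39 had 1, 53 had 2 to 3 and 45 had at least 4, with a highest value of 26. In Normoxia, 97 of 107 endothelial cells had 0, 8 had 1 and 2 had 2. Among cells with a UMI, the median level was 828 CPM in Hypoxia (172 to 3690) and 445 CPM in Normoxia (301 to 718). Thus more endothelial cells had an Ntrk2 UMI in Hypoxia, and the median of those cells was higher as well, where a single UMI sets the lowest level a cell can show.

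The 5 Hypoxia endothelial cells with the most Ntrk2 had 26, 25, 23, 22 and 12 UMIs and together held 21.7% of the class's Ntrk2 UMIs. These cells were deep, with 18454, 17183, 21234, 13665 and 7574 UMIs in all, and their levels of 1409, 1455, 1083, 1610 and 1584 CPM lay inside the range of the other cells. Each of them had all 15 endothelial markers, and at most 3 markers of any other class. Cells with and without an Ntrk2 UMI had median depths of 2958 and 2551 UMIs, and over the 212 cells the Pearson correlation of the normalized Ntrk2 level with log depth was 0.018.

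**Figure D2:**
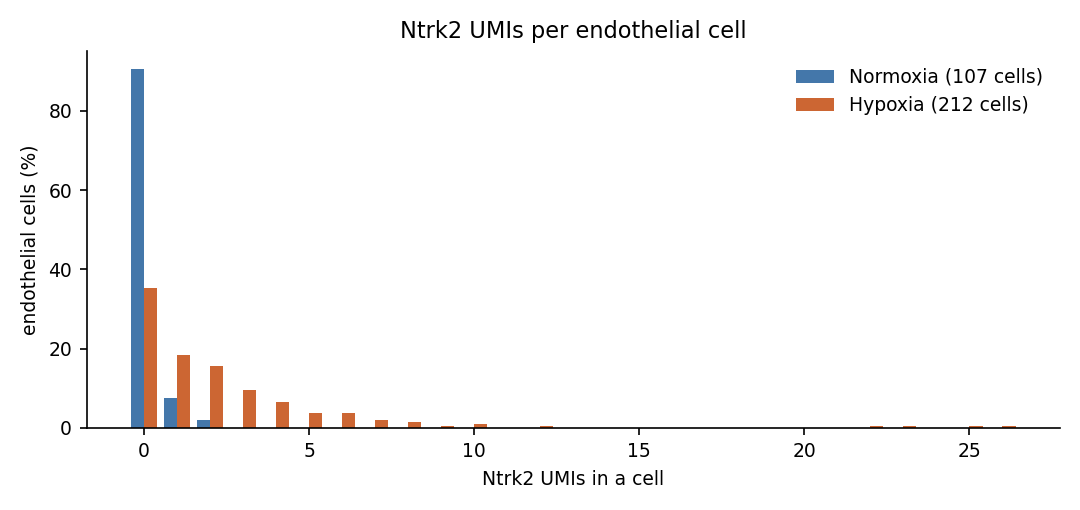
Percent of endothelial cells (vertical axis) by their number of Ntrk2 UMIs (horizontal axis), with Normoxia in blue and Hypoxia in orange. Normoxia cells stop at 2 UMIs, while the Hypoxia cells extend to 26, with 4 cells above 20.

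The retained cells were also clustered jointly without Ntrk2 among the genes used, so that the libraries could also be compared within clusters. Of the endothelial cells, 105 Normoxia and 210 Hypoxia cells fell into 6 clusters. Clusters 0, 3 and 4 had the highest summed level of a list of general capillary genes (12 genes such as Gpihbp1, Kit and Sema3c), at 7656 to 12847 CPM. Cluster 8 had the highest summed level of a list of 14 genes of aerocytes, the large capillary cells of gas exchange, at 38449 CPM in Normoxia and 32570 CPM in Hypoxia. Cluster 7 had the highest summed vein list, at 5219 CPM in Normoxia and 4905 CPM in Hypoxia. Its cells differed between the libraries, with artery genes at 1593 and 7074 CPM and aerocyte genes at 11488 and 905 CPM. In its Normoxia cells, however, the aerocyte genes Car4 and Ednrb had only 33.9 and 136 CPM. They had 6296 and 1145 CPM in Normoxia cells of cluster 8, so the sum in cluster 7 came mostly from other genes of the list. Cluster 14 had the highest summed list of lymphatic endothelium. These genes took part in the clustering, so their levels only describe the clusters.

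In cluster 3, Ntrk2 was found in 53 of 63 Hypoxia cells (84.1%, 72.7 to 92.1%) and 2 of 20 Normoxia cells (10.0%, 1.23 to 31.7%), at 1053 and 33.5 CPM, a log2 ratio of 4.98 (3.11 to 8.03). In cluster 4 it was found in 25 of 35 and 3 of 31 cells, at 707 and 45.6 CPM, a log2 ratio of 3.95 (2.54 to 5.86). Cluster 0 had 45 of 70 and 5 of 22 cells with a UMI, at 654 and 136 CPM, a log2 ratio of 2.26 (1.10 to 3.74). In each of these 3 clusters the Hypoxia interval lay above the Normoxia interval.

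Cluster 7 had Ntrk2 in 6 of 16 Hypoxia cells (487 CPM, 351 to 658) and in 0 of 9 Normoxia cells. It was 4.79-fold higher in Hypoxia when the 0 is set to 3 counts over the group, and the exact lower limit of the log2 ratio was 1.90. Cluster 8, with the aerocyte genes, had the lowest level of the Hypoxia clusters with any Ntrk2, 133 CPM (66.5 to 238) in 7 of 20 cells, against 0 UMIs in 19 Normoxia cells. With that 0 set to 3 counts it was 2.64-fold higher in Hypoxia, and the exact lower limit of the log2 ratio was 0.85. Cluster 14 had 0 Ntrk2 UMIs in 6 Hypoxia and 4 Normoxia cells. Clusters 0, 3 and 4 made up 20.6%, 18.7% and 29.0% of Normoxia and 33.0%, 29.7% and 16.5% of Hypoxia endothelial cells, and cluster 8 made up 17.8% and 9.43%, so the mixture also differed between the libraries.

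**Figure D3:**
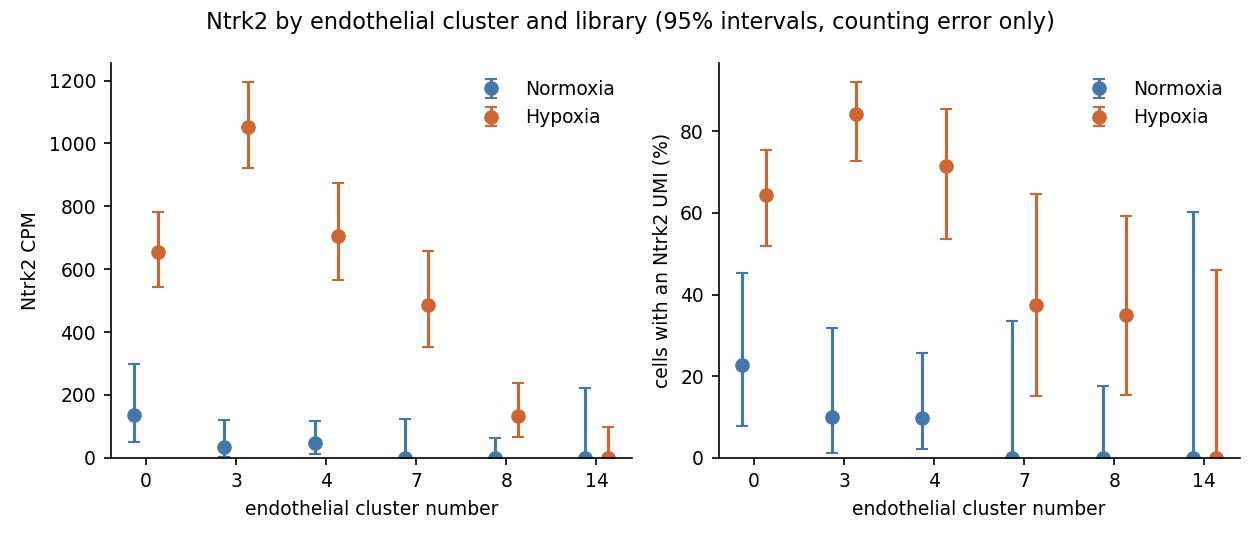
Ntrk2 level in CPM (left) and percent of cells with an Ntrk2 UMI (right) in the 6 clusters of endothelial cells, with Normoxia in blue, Hypoxia in orange and bars for 95% intervals of counting error. Hypoxia lies above Normoxia in clusters 0, 3, 4, 7 and 8, is highest in cluster 3 and is at 0 in cluster 14.

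The ligands and the other receptors of the family were near the limit of detection. Bdnf had 6 UMIs in Normoxia, all in 4 stromal cells (15.4 CPM), and 1 UMI in Hypoxia, outside endothelial and stromal cells. Ntf5, the gene for neurotrophin-4, had 0 UMIs in either library. Ntf3, a ligand of TrkC, had 7 UMIs in Normoxia, all in stromal cells, and 2 UMIs in Hypoxia. Only 22 stromal cells were retained in Hypoxia.

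Among receptors, Ntrk3 (TrkC) had 4 and 5 UMIs and Ngfr 1 and 1 in Normoxia and Hypoxia, none of them in endothelial cells. Sort1, the gene for the sorting receptor sortilin, had 12 and 38 UMIs, of which 3 and 7 were endothelial and 18 of the Hypoxia UMIs were myeloid. Of the 4 ligands and 8 other receptors listed, 0 reached 20 UMIs in endothelial cells. Ntrk2 was therefore the member of this family with the most UMIs in the endothelium of both libraries.

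In stromal cells, Ntrk2 lay in a subset with Pi16, a marker of adventitial fibroblasts, which was picked out after its values had been seen. Of the 14 Normoxia stromal cells with an Ntrk2 UMI, 13 had a Pi16 UMI, against 15 of 73 cells without Ntrk2. Of the Normoxia stromal cells with Pi16, 13 of 28 had Ntrk2 (46.4%, 27.5 to 66.1%), against 1 of 59 without Pi16 (1.69%, 0.0429 to 9.09%). In Hypoxia, 5 of 9 stromal cells with Pi16 and 2 of 13 without had Ntrk2. The cells with Pi16 were deeper, with medians of 5584 against 3222 UMIs in Normoxia and 5170 against 2764 in Hypoxia, and the part of depth in this difference was not tested.

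The fibroblast matrix genes Dcn and Dpt each had a UMI in all 14 Normoxia stromal cells with Ntrk2 and in 57 and 58 of the 73 without, at median depths of 5603 and 3569 UMIs. Hhip, a marker of myofibroblasts in the lung, had one in 1 of 14 cells with Ntrk2 and in 44 of 73 without. Acta2, the smooth muscle actin, had one in 0 of 14 and in 18 of 73. Of the stromal clusters, cluster 5 held all Ntrk2 of the stromal class in 14 of 39 Normoxia and 7 of 21 Hypoxia cells and cluster 6 had it in 0 of 45 and 0 of 6.

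Which genes go with Ntrk2 in the Hypoxia endothelium was asked over its 212 cells, all of 1 library. Of 2588 genes with a UMI in at least 10% of these cells and at least 50 UMIs, the median Pearson correlation of log-normalized levels with Ntrk2 was 0.014. The 10 highest correlations belonged to Cd74 (0.41), Sema3c (0.41), H2-Eb1 (0.40), H2-Ab1 (0.39), Cdk19 (0.38), Scn7a (0.37), H2-Aa (0.35), Slc6a6 (0.35), Cxcl12 (0.34) and Etl4 (0.33), with Sparc next at 0.32. The 10 lowest belonged to Hspb1 (-0.31), Fibin (-0.28), Dbndd2 (-0.26), Lyve1 (-0.25), Apbb2 (-0.24), Igfbp7 (-0.24), Stab1 (-0.24), Crip1 (-0.24), Ednrb (-0.23) and Cdc42ep2 (-0.23), with Ahsa1 next at -0.22. All of these correlations were weak in sparse counts and rank the genes without showing that any of them is tied to Ntrk2.

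Of the 10 highest, 4 belong to antigen presentation by MHC class II. Cd74, the invariant chain, had 6583 CPM in the 137 Hypoxia endothelial cells with an Ntrk2 UMI and 3507 CPM in the 75 without, a log2 ratio of 0.91 (0.80 to 1.02), against 458 CPM in Normoxia endothelium. The class II chain H2-Eb1 had 1222 and 523 CPM, a log2 ratio of 1.22 (0.94 to 1.51), against 143 CPM in Normoxia. Class II genes were thus higher in Hypoxia endothelium with or without Ntrk2, and the log2 ratio of Hypoxia cells without an Ntrk2 UMI over Normoxia cells without one was 3.20 for Cd74, 2.06 for H2-Eb1, 1.67 for H2-Ab1 and 1.86 for H2-Aa. Myeloid cells, which carry class II, had 13209 CPM of Cd74 in Hypoxia and 26636 CPM in Normoxia, and Hypoxia stromal cells had 808 CPM against 18.0 CPM in Normoxia. The part of free RNA from such cells in the endothelial levels was not tested.

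The other genes of that group serve different roles. Sema3c, a secreted semaphorin, had 1797 and 816 CPM in Hypoxia endothelial cells with and without an Ntrk2 UMI (log2 ratio 1.14, 0.92 to 1.37) and 1158 CPM in Normoxia endothelium, between the Hypoxia values. Cdk19, a kinase of the Mediator complex, had 595 and 155 CPM (1.94, 1.45 to 2.48) and 43.6 CPM in Normoxia. Slc6a6, the taurine transporter, had 661 and 251 CPM (1.40, 1.00 to 1.82), and Scn7a, of the sodium channel family, 1317 and 527 CPM (1.32, 1.04 to 1.61). Cxcl12, a chemokine, had 1325 and 757 CPM (0.81, 0.57 to 1.05). Etl4 had 177 and 29.3 CPM (2.60, 1.49 to 3.95), on 91 and 7 UMIs. When the cells were thinned to 1000 UMIs before being split, the log2 ratios of all 10 genes with the highest correlations fell below their intervals at full depth, to between 0.029 and 0.93. Among them, Cd74 was at 0.37 (0.21 to 0.53), Sema3c at 0.56 (0.23 to 0.89) and Cdk19 at 0.82 (0.13 to 1.52), and the intervals of Cxcl12 (-0.35 to 0.40), Scn7a (-0.31 to 0.53) and Etl4 (-1.07 to 1.79) included 0.

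Of the genes with the lowest correlations, Fibin, Igfbp7 and Ednrb stand in the aerocyte list and Lyve1 in that of lymphatic endothelium. Fibin had 33.1 CPM with and 305 CPM without an Ntrk2 UMI, a log2 ratio of -3.21 (-4.06 to -2.43). Lyve1, the hyaluronan receptor of lymphatic endothelium, had 58.4 and 372 CPM (-2.67, -3.32 to -2.06). Igfbp7, a secreted protein of the insulin-like growth factor binding family, had 1157 and 2820 CPM (-1.28, -1.45 to -1.12). Hspb1, a small heat shock protein, had 305 and 782 CPM (-1.36, -1.67 to -1.04), and Ednrb, the endothelin B receptor, 75.9 and 197 CPM (-1.37, -2.03 to -0.73). Some of these UMIs lay in few cells. In cells without Ntrk2, 3 cells held 35 of 73 Fibin, 48 of 89 Lyve1 and 22 of 47 Ednrb UMIs. In cells with Ntrk2, 3 cells held 23 of 39 Ednrb UMIs. An Igfbp7 UMI was in 40.9% of cells with and 49.3% of cells without Ntrk2.

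**Figure D4:**
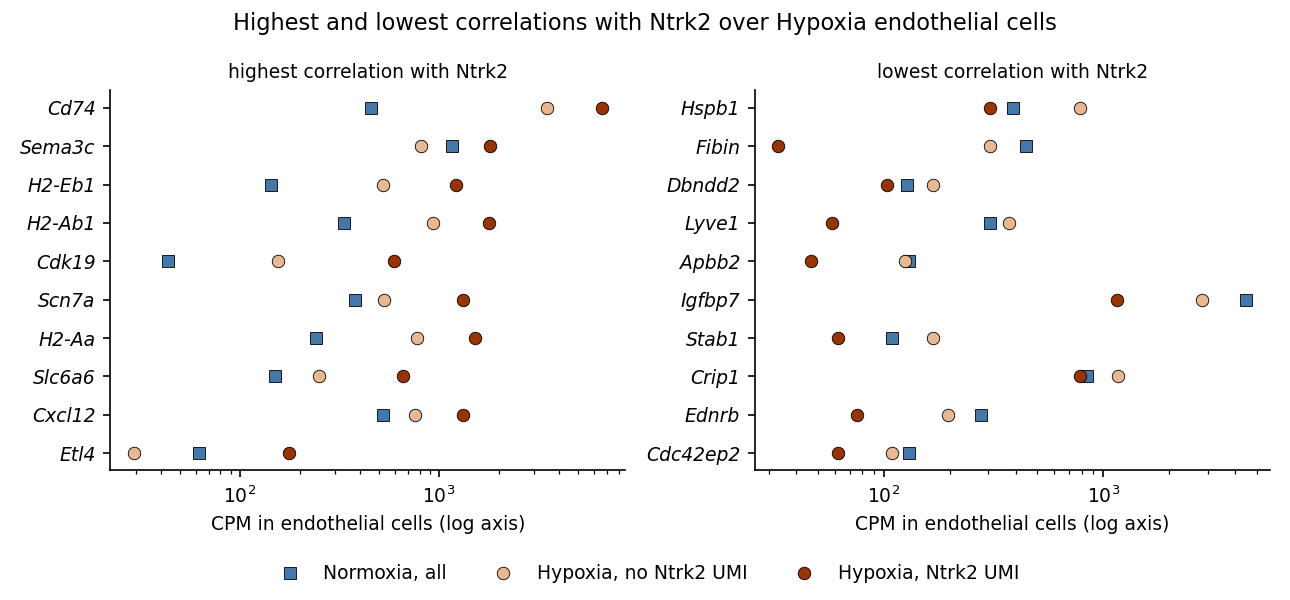
Level in CPM (log axis) of the 10 genes with the highest (left) and the 10 with the lowest (right) correlation with Ntrk2, in Normoxia endothelial cells (blue squares) and in Hypoxia endothelial cells without (pale circles) and with (dark circles) an Ntrk2 UMI. Cd74 goes from 458 to 3507 to 6583 CPM, while Fibin goes from 445 to 305 to 33.1 CPM.

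The levels were also set against the number of Ntrk2 UMIs in a cell. Most of these genes were chosen for their correlation with Ntrk2 over the same cells, so the values describe that choice. Over Hypoxia endothelial cells with 0, 1, 2 to 3 and at least 4 Ntrk2 UMIs, Cdk19 had 155, 372, 438 and 777 CPM and Sema3c 816, 1527, 1528 and 2063 CPM. Fibin had 305, 88.1, 26.1 and 15.5 CPM, Igfbp7 had 2820, 2673, 1254 and 502 CPM, and Hspb1 had 782, 656, 320 and 158 CPM. Stab1, a scavenger receptor, had 167, 29.4, 65.3 and 73.4 CPM and Crip1 1172, 734, 928 and 719 CPM, with no steady order. Car4, a gene of the aerocyte list, had 1314, 1009, 647 and 263 CPM. Cd74 had 3507, 6717, 7511 and 5981 CPM and was highest at 2 to 3 Ntrk2 UMIs, and the endothelial marker Pecam1 had 1431, 1449, 1137 and 1232 CPM. The median depths of these cells were 2551, 2512, 2836 and 3943 UMIs.

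The Normoxia endothelial cells, which took no part in the ranking, gave a separate set of values on only 10 cells with an Ntrk2 UMI and 97 without. All 10 genes of the highest group had a log2 ratio above 0 there, 8 of them with an interval above 0. Of all 2986 genes with at least 20 UMIs, 49.6% were above 0, 3.52% had an interval above 0 and 1.64% an interval below 0. Cdk19 had a log2 ratio of 2.68 (0.75 to 4.41) there, on 5 and 9 UMIs, and all 5 UMIs lay in 1 cell. Cd74 had 1.79 (1.19 to 2.36), but its 34 UMIs with Ntrk2 lay in 4 of the 10 cells. Its share was thus 40%, against 33.0% of the cells without Ntrk2. Sema3c had 1.15 (0.72 to 1.55) and a UMI in all 10 cells. Of the lowest group, 7 of 10 genes were below 0 and 5 had an interval below 0, among them Fibin with 0 and 143 UMIs and Ednrb with 0 and 89 UMIs. Dbndd2, Apbb2 and Crip1 went the other way, with intervals that include 0.

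The endothelial barcodes left out by the filters in Hypoxia, 29 with and 36 without an Ntrk2 UMI, took no part in the choice of the genes that go with Ntrk2. Of the 10 genes with the highest correlation in retained cells, 9 had a log2 ratio above 0 there and 2 had an interval above 0. Of all 830 genes with at least 20 UMIs, 57.2% were above 0, 4.58% had an interval above 0 and 2.41% an interval below 0. Sema3c had a log2 ratio of 1.00 (0.53 to 1.49) and Cdk19 of 1.11 (0.16 to 2.17). Cd74 was at 0.13 (-0.13 to 0.40), H2-Ab1 at 0.20 (-0.35 to 0.77) and H2-Aa at -0.066 (-0.64 to 0.53), with intervals that include 0. Of the 10 genes with the lowest correlation, 4 had a log2 ratio below 0 and 0 had an interval below 0, on few UMIs. Igfbp7 had 0.61 (-0.24 to 1.52), and Fibin and Cdc42ep2 had 3 and 4 UMIs in barcodes with Ntrk2 and 0 in those without.

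The lists of capillary genes were compared between Hypoxia endothelial cells with and without an Ntrk2 UMI. Among the 5500 genes with at least 20 UMIs in Hypoxia endothelial cells, Ntrk2 left aside, 6.36% were at least 2-fold higher and 3.64% at least 2-fold lower in cells with an Ntrk2 UMI, 56.5% were above 0, and the median log2 ratio was 0.076. Of 11 measured general capillary genes, 9 were above 0, 2 were at least 2-fold higher (Kit and Sema3c) and 1 at least 2-fold lower (Plvap), with a median of 0.56. Kit, a receptor tyrosine kinase, had 195 and 54.4 CPM with and without Ntrk2 (1.84, 1.00 to 2.80), and Aplnr, the apelin receptor, 222 and 117 CPM (0.92, 0.31 to 1.57). Plvap, a protein of endothelial diaphragms, had 191 and 519 CPM (-1.44, -1.84 to -1.05).

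Of 14 measured aerocyte genes, 0 were at least 2-fold higher and 6 at least 2-fold lower in cells with Ntrk2 (Car4, Ednrb, Fibin, Cyp4b1, Emp2 and Igfbp7), 12 were below 0, and the median was -0.78. Car4, for a carbonic anhydrase, had 525 CPM with and 1314 CPM without Ntrk2 (-1.32, -1.56 to -1.08), while a Car4 UMI was in 38.7% of the cells with and 32.0% of those without. Of the 314 Car4 UMIs in cells without Ntrk2, 3 cells held 107. In Normoxia endothelium, Emp2, Apln, Tbx2, Fibin, Ednrb, Chst1 and Rprml each had 0 UMIs in the 10 cells with Ntrk2, the largest of them Emp2 with 322 UMIs in the other 97 cells. The 10 cells held 25678 UMIs of all genes and the other 97 held 295562, so a gene with few UMIs can be at 0 by depth. Of all 2986 genes with at least 20 UMIs, 570 were at least 2-fold lower in the 10 cells and 270 higher. The share of all genes at 0 there was not counted. Between the libraries, 6 aerocyte genes were at least 2-fold lower in Hypoxia endothelium and 0 higher, against 4.07% and 5.81% of all genes, with a median of -0.88. The general capillary list had 1 higher and 2 lower and a median of -0.0058. The comparisons by Ntrk2 and by library share the Hypoxia cells and are given side by side.

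**Figure D5:**
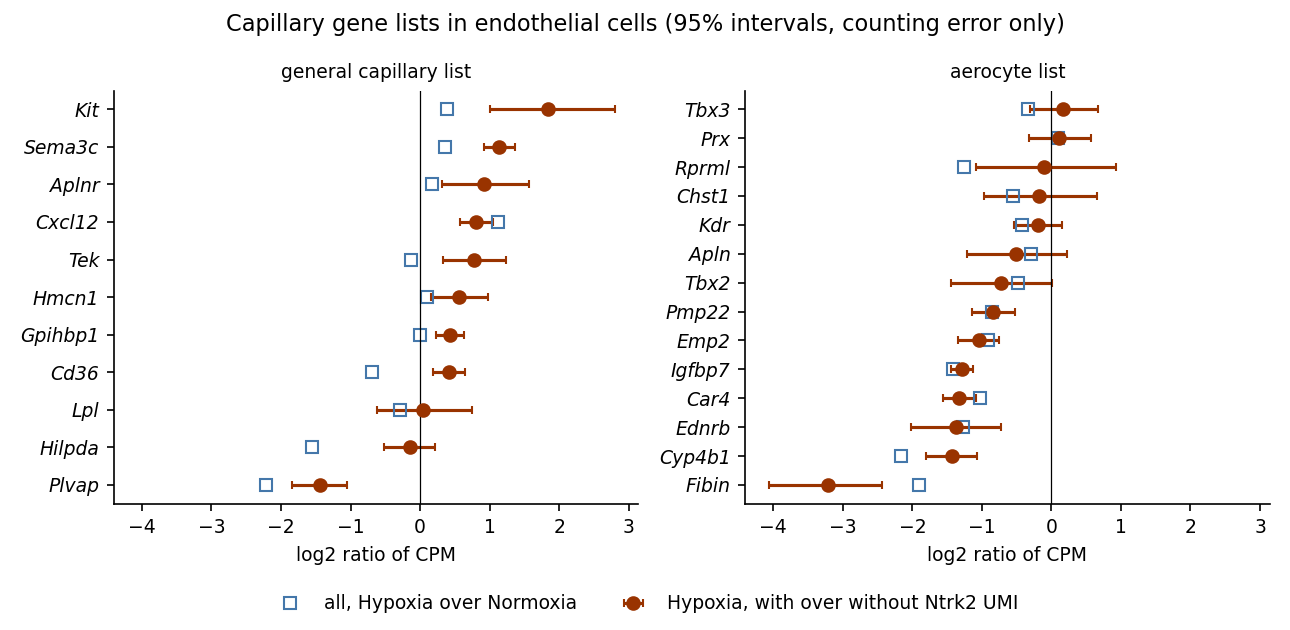
Log2 ratio of CPM for the measured genes of the general capillary (left) and aerocyte (right) lists, as filled points with 95% intervals for Hypoxia endothelial cells with over without an Ntrk2 UMI and as open squares for all endothelial cells, Hypoxia over Normoxia. Kit (1.84) leads the general capillary list and Plvap (-1.44) ends it, and Fibin (-3.21) ends the aerocyte list.

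Genes of lymphatic endothelium, veins and arteries were compared in the same way, against 6.36% of all genes at least 2-fold higher and 3.64% lower. All 4 measured genes of lymphatic endothelium were at least 2-fold lower: Mmrn1 had 0 UMIs with and 70 without Ntrk2, a log2 ratio of -5.65 at the floor of 3 counts, and Lyve1, Flt4 and Thy1 were lower as well. The 70 Mmrn1 UMIs lay in only 6 cells, and 3 of these held 52. Lyve1 had a UMI in 31 of 212 Hypoxia endothelial cells while cluster 14 held 6 of them, so Lyve1 was not limited to that cluster. Of 7 vein genes, 0 were at least 2-fold higher and 3 were lower (Vwf, Nr2f2 and Vcam1), with a median of -0.99. However, the same list had a median of 1.07 in Hypoxia over Normoxia. There 4 of 7 genes were higher and 1 lower, against 5.81% and 4.07% of all genes. Of 7 artery genes, 0 were higher and 2 lower (Fbln5 and Mgp), with a median of -0.024. Mgp, the gene for matrix Gla protein, had 173 CPM with and 1590 CPM without Ntrk2 (-3.20, -3.55 to -2.86), but a UMI in 19.7% of cells with and 18.7% of cells without. Of the 380 Mgp UMIs in cells without Ntrk2, 3 cells held 324, and 3 cells held all 49 Thy1 UMIs of these cells. Sox17, an arterial transcription factor, was above 0 (0.93, 0.50 to 1.39).

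The adaptors and enzymes of Trk signalling were detected at low levels in most cases. Of 28 genes listed, 19 had at least 20 UMIs, 3 were at least 2-fold higher in cells with Ntrk2 and 0 lower, with a median of 0.38. Over all genes 6.36% were higher and 3.64% lower. Rapgef1, a guanine nucleotide exchange factor, had 73.9 and 25.1 CPM (1.56, 0.30 to 3.09), and Map2k1, a kinase of the MAP kinase cascade, 58.4 and 25.1 CPM (1.22, -0.071 to 2.77). Plcg1, phospholipase C gamma, had 99.2 and 66.9 CPM (0.57, -0.27 to 1.48), and Shc1 had 40.9 and 71.1 CPM (-0.80, -1.79 to 0.21). Between the libraries, 1 of 20 measured genes was at least 2-fold higher in Hypoxia (Rapgef1) and 0 lower, against 5.81% and 4.07% of all genes, with a median of 0.20.

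Known targets of the hypoxia-inducible factors were counted in both comparisons. In Hypoxia over Normoxia endothelium, 8 of 17 measured targets were at least 2-fold higher and 1 lower (Hilpda), with a median of 0.36. Over all genes 5.81% were higher and 4.07% lower, and 6 of the 17 targets had an interval above 0. Within the Hypoxia cells, 1 of 15 was at least 2-fold higher with Ntrk2 (Pgk1) and 1 lower (Ddit4), with a median of 0.074. Over all genes 6.36% were higher and 3.64% lower with Ntrk2, with a median of 0.076. Bnip3, a mitophagy receptor, had 214 and 121 CPM with and without Ntrk2 (0.82, 0.22 to 1.46). Of 7 measured genes of angiogenic and tip cells, Col4a1 and Col4a2, the chains of basement membrane collagen, were at least 2-fold higher and Unc5b was lower, with a median of -0.16. Of 6 cell cycle genes, 1 was higher (Stmn1) and 0 lower, with a median of -0.033, and of 13 genes of the dissociation stress response 0 were higher and 0 lower, with a median of 0.068.

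The reverse count, the share of Hypoxia endothelial cells with Ntrk2 by the presence of another gene, was taken at full depth and after thinning to 1000 UMIs. Sema3c, Cdk19 and Fibin were chosen for their correlation with Ntrk2 over these same cells. Their shares, also after thinning, describe that choice and are no separate support for it. Ntrk2 was found in 71.5% (64.3 to 78.0%) of 179 cells with a Sema3c UMI and 27.3% (13.3 to 45.5%) of 33 without, and in 48.9% and 19.4% after thinning. For Gpihbp1, a lipoprotein lipase anchor of capillaries, these shares were 69.5% and 40.0%, and 46.6% and 19.7% after thinning. For Cdk19 they were 80.9% and 47.1%, and 53.6% and 33.1% after thinning. For Kit they were 84.6% and 53.0%, but 42.3% of 26 cells and 38.1% of 181 after thinning, which do not separate at this depth. Cells with and without a UMI of Car4 (68.8% and 62.2%), Plvap (63.2% and 65.6%) and Mgp (65.9% and 64.3%) also had overlapping intervals at full depth. After thinning, the shares were close for Aplnr (38.7% and 38.6%) and Sox17 (37.1% and 39.3%). Fibin went the other way, with 36.4% (17.2 to 59.3%) of 22 cells with it and 67.9% (60.7 to 74.5%) of 190 without. Ntrk2 was in 0 of 6 cells with Mmrn1, which allows a share of up to 45.9%.

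Markers of other classes were low in these cells. The 15 endothelial markers summed to 19002 CPM in Hypoxia endothelial cells with Ntrk2 and 17696 CPM in those without (log2 ratio 0.10, 0.051 to 0.16). The 14 measured myeloid markers summed to 156 and 113 CPM (0.46, -0.18 to 1.15), with 3 and 8 of the markers at 0, and to 56.0 CPM in Normoxia endothelium. The 15 lymphoid markers summed to 25.3 and 58.6 CPM, with 10 at 0 in both, the 15 stromal markers to 37.0 and 46.0 CPM, with 7 and 11 at 0, and the 10 epithelial markers to 5.84 and 16.7 CPM, with 7 and 6 at 0. Endothelial cells with at least 2 markers of another class were then left out. Only 6 of 137 cells with and 2 of 75 without Ntrk2 had 2 or more myeloid markers, and fewer had 2 of any other class. After this, 9 of the 10 highest and 8 of the 10 lowest genes were still among them. The log2 ratio of Ntrk2 in Hypoxia over Normoxia endothelium was then 3.96 (3.14 to 4.92). Nearly the same cells were thus ranked again, and the class II genes are in no marker list. The part of RNA from other cells in the genes that go with Ntrk2 was therefore not measured.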

How the data were processed

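Cells of 1 Normoxia and 1 Hypoxia library were measured by 10x Genomics 3′ chemistry. The authors deposited whole-number UMI counts per gene and barcode. According to the matrix headers and the submitters' processing notes, Cell Ranger 3.1.0 made them with mm10. These counts were used as deposited. Per the study's methods, a barcode was kept if it had 200 to 6000 genes and if no more than 5% of its UMIs were mitochondrial, although the methods describe another preparation of lung cells. Ntrk2 and the gene lists were chosen with earlier results of these data known. The per-cluster values, the Pi16 comparison and the values in cells left out by the filters were added once the data were known.

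Levels are UMIs summed over the cells of a class, per 1000000 of all their UMIs. Intervals are exact (Poisson for levels, conditional binomial for ratios, Clopper-Pearson for shares). Retained cells had 1112485 Normoxia and 1592173 Hypoxia UMIs. With 1 library per group no test was made, and a gene counted as different at 2-fold with at least 20 UMIs in the cells compared. The named genes are the 10 highest and 10 lowest Pearson correlations with Ntrk2 over Hypoxia endothelial cells on values log-normalized to 10000 UMIs, among genes detected in at least 10% of cells with at least 50 UMIs, without mitochondrial, ribosomal, haemoglobin, Gm and Rik genes. Clusters came from scanpy 1.11.5 on genes of at least 3 cells without Ntrk2 (2000 variable genes, 15 components, 15 neighbours, Leiden resolution 1). Scrublet marked 1 Normoxia and 2 Hypoxia cells as doublets, and none was removed. Ratios and intervals were checked on counts simulated from the Poisson model that they assume. The check cannot show how they hold where the UMIs of a gene lie in few cells. The alternatives changed filters, classes, thinning, minimum counts, totals and cell weights. Clec7a, Ca9, Ccl21a and Aldoa had no single match by symbol and were left out. The tdTomato transcript was not analysed here. Values of some listed genes are not reported here.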

Additional observations from a re-analysis of the deposited data

Results flagged for a closer look

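Ntrk2 was also present in barcodes that the filters removed, which were used above only for the genes that go with Ntrk2. In the 160 Hypoxia barcodes left out, Ntrk2 had 91 UMIs, or 229 CPM, and a UMI in 31 barcodes (19.4%, 13.6 to 26.4%). In the 80 Normoxia barcodes left out it had 2 UMIs, or 9.46 CPM. The level in these Hypoxia barcodes lay above that of the Normoxia ones, which is why it is listed here. Endothelial markers placed 65 of the Hypoxia barcodes in the endothelial class, and these held 89 of the 91 UMIs, at 864 CPM and with a UMI in 29 of 65 (44.6%, 32.3 to 57.5%), at a median of 1118 UMIs and 7.18% mitochondrial UMIs. The 21 Normoxia endothelial barcodes left out held 1 Ntrk2 UMI.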

How the results depend on the processing

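The log2 ratio of Ntrk2 in Hypoxia over Normoxia stayed within its main interval under each alternative run, from 3.04 to 3.37 over 7 alternatives for all retained cells and from 3.88 to 4.35 over 12 for endothelial cells. The share of Hypoxia endothelial cells with an Ntrk2 UMI was 53.7%, 38.6% and 25.9% when cells were thinned to 2000, 1000 and 500 UMIs and 46.2% for at least 2 UMIs. The Normoxia share was 0.935% at 500 UMIs and 1.87% for at least 2 UMIs. Of the genes 2-fold higher and lower with Ntrk2, the counts were 99 and 55 of 2736 genes with a minimum of 50 UMIs, 767 and 513 of 7675 with a minimum of 10, and 52 and 92 of 1936 in thinned cells, where other numbers of genes were tested. They were 51 and 27 of 830 in Hypoxia endothelial barcodes left out by the filters. In Normoxia endothelium, where only 10 cells had Ntrk2, they were 270 and 570 of 2986. In Hypoxia over Normoxia endothelium the counts were 121 and 74 of 3687 genes at 50 UMIs and 748 and 569 of 8614 at 10.

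Over 10 alternatives within the Hypoxia endothelium, 181 of 200 log2 ratios of the named genes lay within the main interval and 0 changed sign. Thinning to 1000 UMIs moved 14 of the other 19, all 10 of the genes with the highest correlations among them, with the lowest values for Cxcl12 (0.029) and Scn7a (0.12). In the other cells, an alternative chosen after seeing the data, the sign changed in Normoxia cells for Dbndd2 (0.32), Apbb2 (0.28) and Crip1 (0.019), and in the barcodes left out for H2-Aa (-0.066), Dbndd2 (1.51), Igfbp7 (0.61), Crip1 (0.47) and Ednrb (0.34). Fibin (3 and 0 UMIs) and Cdc42ep2 (4 and 0 UMIs) were there found only with Ntrk2. The membership of the lists was less stable: 5 to 10 of the 10 highest and 2 to 10 of the 10 lowest genes were shared with the main ranking, with the fewest in thinned cells. The causes of these changes were not tested. No paired analysis was possible because each group had 1 library. A single library per group, unknown pooling of animals and shallow cells limit every value.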
